A study of Mus musculus with 98 samples.

Results

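Skeletal muscle from mice with humanized livers was compared with muscle from mice with murine livers in the hours around lights on. Zeitgeber time (ZT) counts the hours from lights on, and the libraries used here are those of ZT 22, the end of the dark phase, and ZT 2, early in the light phase. They were taken by tissue, arm and time label alone, which gave 9 of the 27 muscle libraries and of the 98 libraries in the series. The humanized arm (Hu) held 5 of them, 2 at ZT 22 and 3 at ZT 2. The murine arm (Mu) held 4, with 2 at each time. The other 18 muscle libraries, 10 Hu and 8 Mu at ZT 6, 10, 14 and 18, served as the reference for a departure, that is, an arm difference around lights on that is not the arm difference at the other times.

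All animals were male FRGN mice aged 10 weeks, which lack Fah, Rag2 and Il2rg on a NOD background. Fah is an enzyme of tyrosine breakdown whose loss damages the animal's own hepatocytes unless the drug nitisinone (NTBC) is given, and the absence of Rag2 and Il2rg leaves the mice without T, B and natural killer cells, so that human cells are not rejected. Hu-FRGN mice received human hepatocytes through the spleen and were used when the human cells had filled more than 70% of the liver. Mu-FRGN mice received murine hepatocytes by the same route. Both arms went through withdrawal of NTBC, the antibiotic SMX/TMP, dextrose in the water and diet 5LJ5, so they do not differ in these. They differ in the transplanted cell, and a threshold of repopulation is given for Hu alone. The muscle itself is murine in both arms. The labels do not say that each library came from a separate animal, so the p-values measure only the spread between these libraries.

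Muscle fibres hold their own circadian clock. The factors BMAL1 (gene Arntl) and CLOCK switch on the Per and Cry genes, whose proteins then shut BMAL1 and CLOCK off, and a side loop of REV-ERB receptors (Nr1d1, Nr1d2), which repress Arntl, and ROR receptors, which activate it, times the return. The PAR bZIP factors DBP, TEF and HLF and their competitor NFIL3 carry the rhythm to genes of fuel use. The clock in muscle is reset by feeding, hormones and activity as well as by nervous signals, and in nocturnal mice lights on marks the passage from the active, feeding phase to rest.

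The 9 libraries held 50864197 to 73852670 counts, while all muscle libraries ranged from 43102074 to 92054635 counts. Levels are given in CPM, counts per 1000000 counts of a library, scaled by the trimmed mean of M-values. Genes of fast muscle fibres summed to between 90690 and 169900 CPM over the 9. The 3 deleted genes were still counted at a low level. Fah lay between 0.481 and 3.76 CPM, Rag2 between 0.892 and 1.29 CPM, and Il2rg between 0.753 and 1.39 CPM in Hu and between 1.54 and 1.74 CPM in Mu. The counts do not show whether these reads lie outside the deleted part. Replicate 2 of Mu at ZT 2 stood apart from the other Mu libraries. It held 5066 CPM of fat cell markers against 1137 to 1518 CPM in the other 3 Mu libraries, and 2283 CPM of slow and oxidative fibre genes against 8139 to 15500 CPM. The share of counts on mitochondrial genes was 7.87 to 8.38% in Hu and 9.11 to 11.05% in Mu. In bulk tissue, fewer cells of a type and less RNA per cell cannot be told apart.

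**Figure D1:**
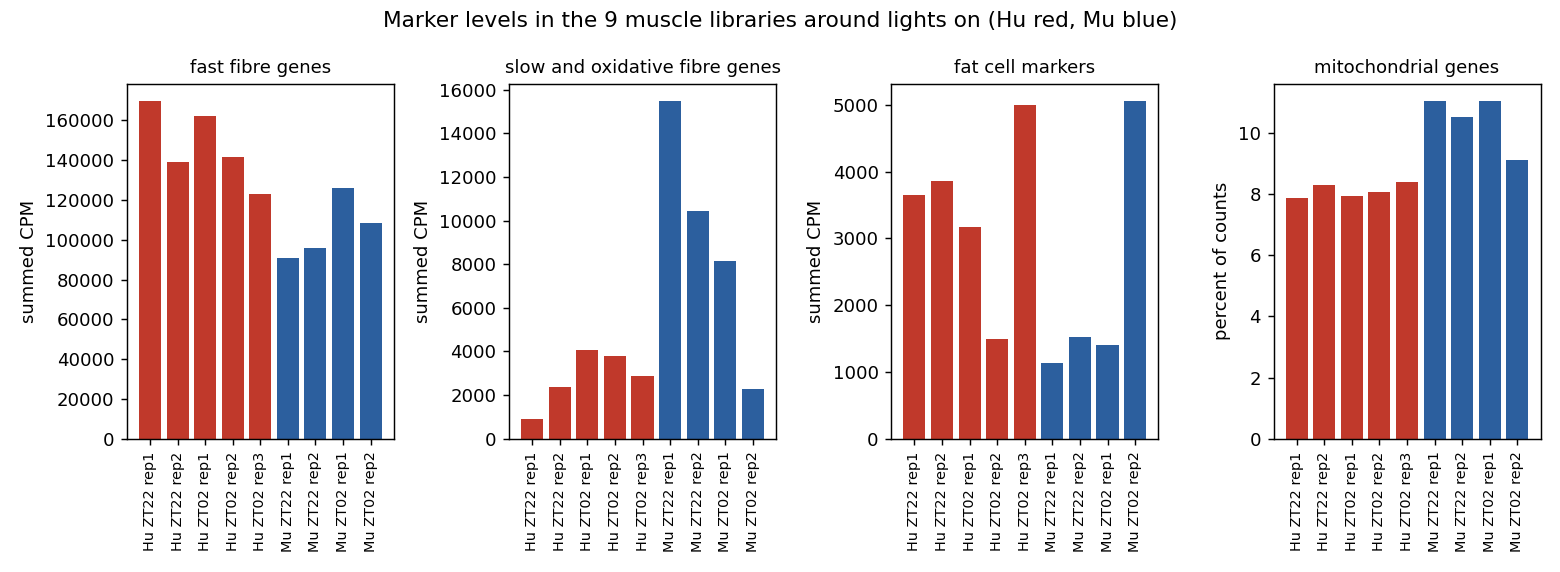
Summed CPM of fast fibre genes, of slow and oxidative fibre genes and of fat cell markers, and the percent of counts on mitochondrial genes, in each of the 9 muscle libraries around lights on (bars, Hu red, Mu blue; rep is the replicate number). Replicate 2 of Mu at ZT 2 has the fat cell level of the highest Hu library (5066 and 5001 CPM) and the lowest slow fibre level of the Mu libraries (2283 CPM).

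The first comparison asked which muscle genes differ between the arms around lights on, with ZT as a covariate. Of 14197 genes tested, 8 passed an adjusted p of 0.05 (edgeR quasi-likelihood test, Benjamini-Hochberg adjustment), which is 0.0563%. Of these, 5 were higher in Hu, among them Lrp2bp, Themis3, Fam81b and Mafa, and 3 were lower, Gnpda1, Rab15 and Ints6l. At an unadjusted p under 0.05, 1302 genes (9.17%) were higher and 1377 (9.7%) lower. All Hu libraries lay above all Mu libraries for 580 genes (4.09%) and below them for 415 (2.92%). All 8 genes that passed were separated in this way, and 5 of them differed by more than 2-fold.

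Lrp2bp, named for its binding to the endocytic receptor megalin, was at 26.0 and 26.9 CPM in Hu at ZT 22 and 34.1, 28.4 and 26.6 CPM at ZT 2. Mu libraries held 9.47 and 8.66 CPM at ZT 22 and 14.1 and 11.2 CPM at ZT 2. The groups did not overlap, and the difference was 1.37 ± 0.115 on the log2 scale (SE; adjusted p = 0.0061, edgeR). At the other times the 2 arms overlapped, since 1 Hu library, replicate 2 at ZT 14, was at 5.66 CPM, and the difference of 0.82 ± 0.29 did not pass (adjusted p = 0.0712, edgeR). That same library was also the lowest of all muscle libraries for Themis3 (0.369 CPM), Fam81b (0.0189 CPM) and Mafa (16.4 CPM). Lrp2bp lies at chr8:45999303-46029477, plus strand.

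Themis3 belongs to the Themis family, first described in thymocytes, and these mice lack mature T cells. It stood at 6.54 and 3.78 CPM in Hu at ZT 22 and at 4.06, 4.27 and 4.48 CPM in Hu at ZT 2. In Mu it stood at 0.418 and 0.57 CPM at ZT 22 and at 0.413 and 0.939 CPM at ZT 2, or 22 to 60 counts a library. The arm difference was 2.97 ± 0.30 (log2; adjusted p = 0.0172, edgeR), the largest of the 8. At the other times the medians were 2.85 CPM in Hu and 1.72 CPM in Mu, and the difference was 0.89 ± 0.39 (adjusted p = 0.126, edgeR). The gene lies at chr17:66554505-66594621, minus strand.

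Fam81b gave few counts, 25 to 53 in each Hu library and 4 to 6 in each Mu library around lights on. Its levels were 0.708 and 0.701 CPM in Hu at ZT 22, 0.833, 0.507 and 0.455 CPM in Hu at ZT 2, 0.076 and 0.09 CPM in Mu at ZT 22, and 0.0661 and 0.0939 CPM in Mu at ZT 2. The difference was 2.95 ± 0.30 (log2; adjusted p = 0.0172, edgeR), against 0.84 ± 0.50 at the other times (adjusted p = 0.266). Those times were unlike each other. All Hu libraries were above all Mu libraries at ZT 10 (1.26) and ZT 18 (2.57), and the arms overlapped at ZT 6 (0.23) and ZT 14 (-0.50). Fam81b lies at chr13:76201708-76305072, minus strand. Mafa, a bZIP transcription factor best known for driving insulin genes in beta cells, was at 58.7, 61.3, 66.9, 49.2 and 56.4 CPM in the Hu libraries and at 30.5, 30.7, 28.2 and 36.2 CPM in the Mu libraries, ZT 22 before ZT 2. That is 0.90 ± 0.111 on the log2 scale (adjusted p = 0.0382, edgeR), with 0.42 ± 0.23 at the other times, where the arms overlapped. Mafa lies at chr15:75745490-75748228, minus strand.

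Among the genes lower in Hu, Rab15, a small GTPase of endosome recycling, differed most. Hu libraries held 0.968 and 1.88 CPM at ZT 22 and 1.20, 1.54 and 1.71 CPM at ZT 2, while Mu libraries held 10.8 and 8.52 CPM at ZT 22 and 9.85 and 4.08 CPM at ZT 2. The lowest Mu value was that of replicate 2 at ZT 2. The difference of -2.47 ± 0.30 passed the test (adjusted p = 0.0382, edgeR), and so did -1.88 ± 0.43 at the other times (adjusted p = 0.0129). Rab15 lies at chr12:76797960-76822908, minus strand.

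Gnpda1, which turns glucosamine 6-phosphate back into fructose 6-phosphate, was at 4.08, 3.62, 3.81, 4.04 and 3.95 CPM in Hu and at 6.68, 8.06, 6.79 and 6.96 CPM in Mu, ZT 22 before ZT 2. Ints6l, a relative of an Integrator complex subunit, was at 12.3, 10.9, 12.9, 12.4 and 13.97 CPM in Hu and at 18.1, 17.9, 18.7 and 19.6 CPM in Mu in the same order. Both were tightly grouped within each arm, with differences of -0.86 ± 0.101 for Gnpda1 and -0.59 ± 0.0724 for Ints6l (log2; adjusted p = 0.0382 for each, edgeR). In the fit of the other times their differences had the opposite sign and did not pass, 0.16 ± 0.25 for Gnpda1 and 0.26 ± 0.16 for Ints6l. Time by time, Gnpda1 was positive at ZT 14 alone (1.085). It was slightly negative at ZT 6 (-0.037), ZT 10 (-0.23) and ZT 18 (-0.048), where the arms overlapped. Ints6l was positive at ZT 6 (0.60), ZT 10 (0.0099), ZT 14 (0.060) and ZT 18 (0.30). Ints6l lies at chrX:56454857-56507843, plus strand. Gbp6, an interferon-induced GTPase, and Mcc were next in order and did not pass (-0.66 ± 0.0911 and -0.78 ± 0.108, adjusted p = 0.0746 for each, edgeR).

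**Figure D2:**
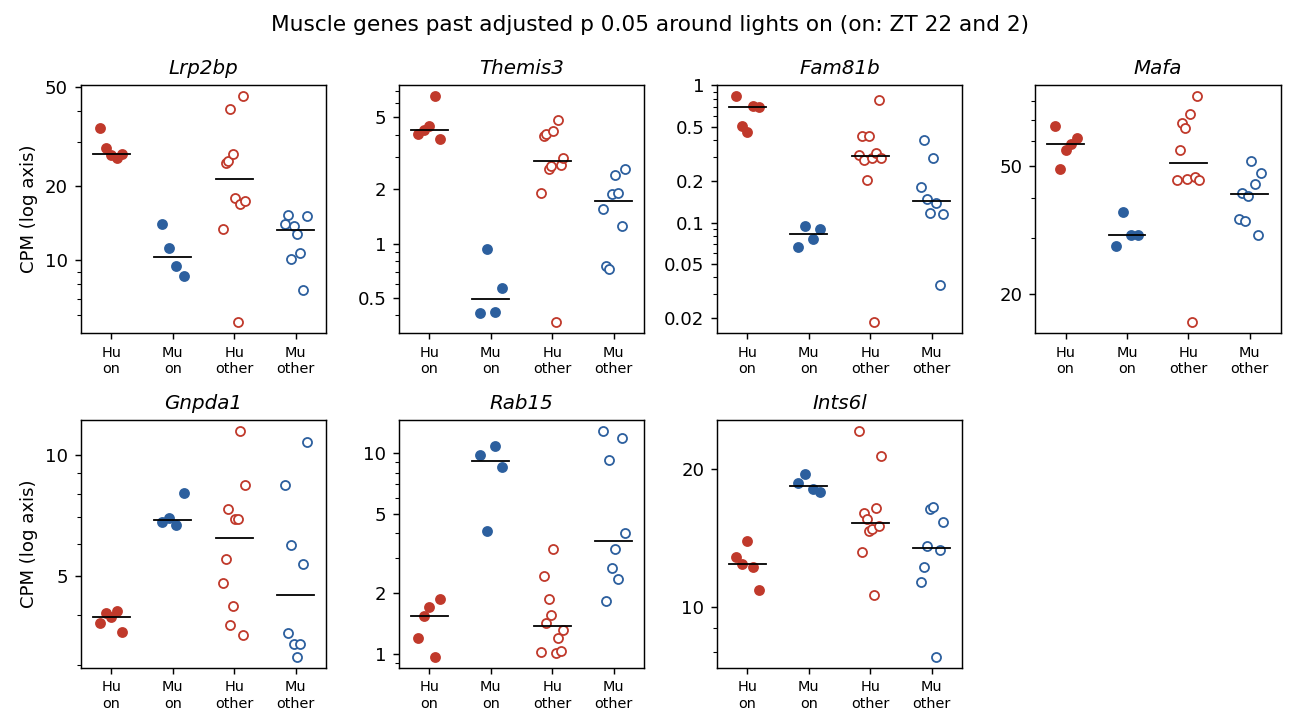
CPM (log axis) of 7 genes that passed around lights on, in each library (filled points, ZT 22 and 2; open points, ZT 6, 10, 14 and 18; Hu red, Mu blue; black line, group median). The filled red and blue points are apart for every gene, while the open points of the arms overlap for every gene.

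The number of calls moved with single libraries. With replicate 1 of Mu at ZT 22 left out, no gene passed, and with replicate 2 of Mu at ZT 2 left out, 327 did, the 8 among them. Without replicate 3 of Hu at ZT 2 there were 13 calls, and without each of the other 6 libraries there were 2 to 4. DESeq2 on the same libraries called 902 genes, and edgeR with fat cell and slow fibre scores as covariates called 0. Lrp2bp kept its call in 8 of the 9 fits that each omit 1 library. Themis3 kept its call in 3, Fam81b in 4, Mafa and Ints6l in 2, and Gnpda1 and Rab15 in 1.

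At the other times 2037 genes (14.3%) passed, 949 higher and 1088 lower in Hu. Without replicate 2 of Mu at ZT 6, either Mu library of ZT 14 or replicate 1 of Mu at ZT 18 there were 1357, 1298, 1206 and 1072, and with the fat cell and slow fibre scores as covariates 0. Of the 8 genes called around lights on, 2 were among them, Rab15 being 1, which is 25% of the 8 and 0.0982% of the 2037. Of the 8, 6 had the same sign in both sets of times. Across all genes tested, the arm differences around lights on and at the other times, which share no library, had a Pearson r of 0.546 and a Spearman rho of 0.438. These describe genes within the same arms, and genes are not independent replicates.

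The next comparison asked whether any gene's arm difference around lights on departs from the one at the other times. It was tested in a single fit of the 27 libraries with a mean for each arm and time. No gene passed (0 of 14197, 0%), and the smallest adjusted p was 0.427 (edgeR). DESeq2 called 1 gene. At an unadjusted p under 0.05, the departure was positive for 821 genes (5.78%) and negative for 709 (4.99%). The median departure of all genes was -0.04 on the log2 scale. Of the 8 genes called around lights on, Ints6l (-0.83 ± 0.23, unadjusted p = 0.0023), Themis3 (2.15 ± 0.63, unadjusted p = 0.003), Fam81b (2.07 ± 0.69, unadjusted p = 0.0079) and Gnpda1 (-1.06 ± 0.36, unadjusted p = 0.0086) had departures under an unadjusted p of 0.05, and Lrp2bp, Mafa and Rab15 did not. Because these 8 were called on the same libraries, their departures are given as a description. The genes described next are those with the smallest p-values, and none of them passed.

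**Figure D3:**
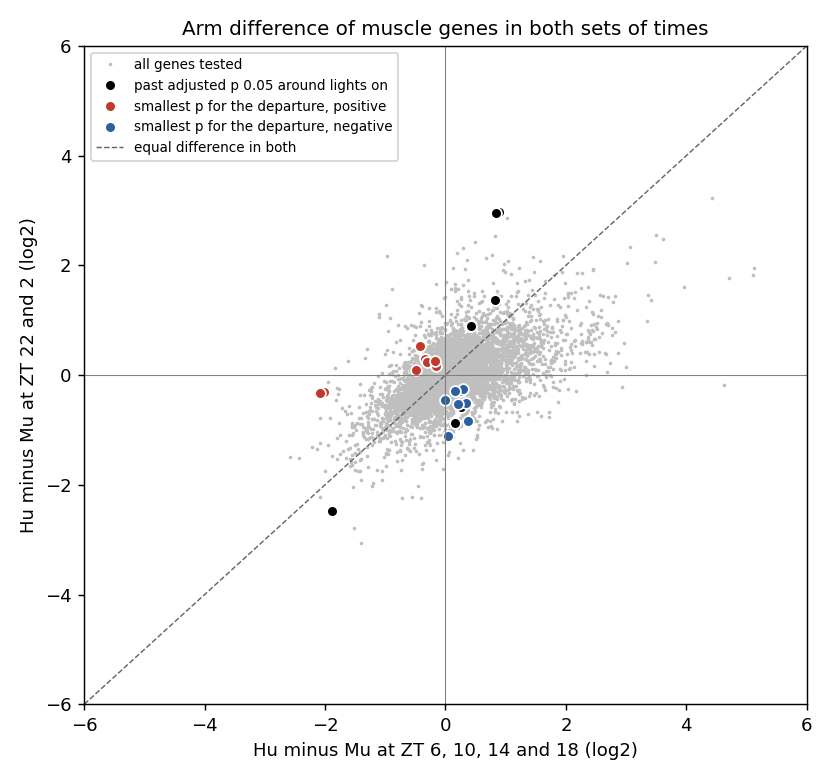
Hu minus Mu (log2) at ZT 6, 10, 14 and 18 (x axis) against Hu minus Mu (log2) at ZT 22 and 2 (y axis) for each muscle gene tested (grey). The 7 genes described above as called around lights on (black) and the 8 genes with the smallest p for a positive (red) and a negative (blue) departure are drawn over them, and the dashed line marks an equal difference in both.

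The 8 genes at the head of the positive side were Crim1, 1810013L24Rik, Gm37389, Rab4a, Nr1d2, Timm17b, Pmp2 and Wls, with departures between 0.35 and 1.67 (log2). Crim1, a membrane protein that binds bone morphogenetic proteins, was at 58.8 and 55.0 CPM in Hu at ZT 22, 87.7, 67.7 and 60.4 CPM in Hu at ZT 2, 54.9 and 49.6 CPM in Mu at ZT 22 and 55.9 and 51.3 CPM in Mu at ZT 2. The arms overlapped slightly around lights on, with a difference of 0.29 ± 0.12. Crim1 was lower in Hu at the other times, with medians of 58.2 against 75.8 CPM and a difference of -0.34 ± 0.076 that passed (adjusted p = 0.0119, edgeR). The departure was 0.62 ± 0.13 (unadjusted p = 0.00018). Crim1 lies at chr17:78200248-78376592, plus strand.

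Nr1d2, which encodes the repressor REV-ERBβ, is the core clock gene among the 8. Its levels were 84.0 and 39.0 CPM in Hu at ZT 22, 139, 97.8 and 106 CPM in Hu at ZT 2, 60.6 and 54.8 CPM in Mu at ZT 22 and 59.4 and 62.5 CPM in Mu at ZT 2. All Hu libraries were above all Mu libraries at ZT 2 alone. The median over the other times was lower in Hu (98.2 against 124 CPM), and the departure was 0.93 ± 0.22 (unadjusted p = 0.0006). It was 0.60 without replicate 1 of Hu at ZT 22 and 1.155 without replicate 2 of Hu at ZT 22, where it passed (adjusted p = 0.0455, edgeR). The gene lies at chr14:18204054-18239127, minus strand.

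Rab4a, a GTPase of recycling endosomes, Timm17b, a part of the mitochondrial import machinery, and Wls, which carries Wnt proteins to the cell surface, had small departures of 0.59 ± 0.14, 0.35 ± 0.084 and 0.45 ± 0.11. Each was somewhat higher in Hu around lights on and lower in Hu at the other times. Pmp2, a lipid-binding protein of peripheral myelin, was low throughout, at 0.159 to 0.492 CPM in Hu and 0.25 to 0.463 CPM in Mu around lights on, where the arms overlapped. Its difference of -2.09 ± 0.23 at the other times passed (adjusted p = 0.0006, edgeR). Gm37389 lies over Pmp2 on the same strand (chr3:10179852-10197262 against chr3:10179851-10183929), and its levels were nearly the same in each library, so the reads of the pair cannot be told apart. In the Schwann cell and nerve list, Pmp22, a protein of peripheral myelin, had a departure of 0.33 ± 0.15 (unadjusted p = 0.0437), with 0 of the 6 genes of that list passing.

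On the negative side the 8 genes were Slc7a6, Rgcc, Sfmbt1, Ankrd27, Dph6, Flnc, Zc3h7a and Zmym6, with departures from -0.46 to -1.31 (log2). Flnc, the muscle filamin that anchors the Z-disc and responds to mechanical load, was at 481 and 909 CPM in Hu at ZT 22, 781, 969 and 946 CPM in Hu at ZT 2, 2460 and 1850 CPM in Mu at ZT 22 and 1680 and 1180 CPM in Mu at ZT 2. Every Mu library was above every Hu library, and the difference of -1.12 ± 0.26 did not pass (adjusted p = 0.130, edgeR). The medians over the other times were 1030 CPM in Hu and 1090 CPM in Mu. The 2 highest Flnc levels of all muscle libraries were both Hu libraries of ZT 14, at 3390 and 2620 CPM. Flnc lies at chr6:29433256-29461883, plus strand.

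Rgcc, a regulator of cell cycle kinases, followed the same course. It was at 34.3 and 52.7 CPM in Hu at ZT 22, 31.0, 22.5 and 45.6 CPM in Hu at ZT 2, 79.3 and 69.7 CPM in Mu at ZT 22 and 65.1 and 56.9 CPM in Mu at ZT 2, without overlap, and at 119 and 110 CPM in Hu at ZT 14. Its departure was -1.31 ± 0.31 (unadjusted p = 0.00047). Slc7a6, an exchanger of cationic and neutral amino acids, had a departure of -0.84 ± 0.19. Slc7a6 was higher in Hu at the other times (0.34 ± 0.11, adjusted p = 0.0419, edgeR), as was Dph6, an enzyme of diphthamide synthesis on elongation factor 2 (0.30 ± 0.077, adjusted p = 0.0209). The other 6 did not pass there.

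The reference holds times that differ among themselves. The arms differed at ZT 14 in 909 genes, against 0 to 9 genes at each of the other 5 times, in the fit with a mean for each arm and time. With ZT 14 left out of the reference, which was chosen after seeing these values, the departure still gave 0 genes, the number at an unadjusted p under 0.05 fell from 1530 to 722, and the smallest adjusted p was 0.83 (edgeR). Without ZT 14 the departure of Flnc was -0.83 ± 0.34 and that of Rgcc -0.77 ± 0.32, while Gm37389 (1.80 ± 0.39), Pmp2 (1.84 ± 0.42), Crim1 (0.57 ± 0.14) and Dph6 (-0.60 ± 0.14) moved less. The departures of Rab4a, Timm17b and Wls fell to 0.40 ± 0.15, 0.24 ± 0.088 and 0.35 ± 0.12. Against ZT 14 alone the departure gave 151 genes. Leaving out 1 library gave 32 genes without replicate 1 of Hu at ZT 14, 3 without replicate 2 of Hu at ZT 22, 1 without replicate 2 of Mu at ZT 2 and 0 otherwise.

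ZT 22 and ZT 2 lie on either side of lights on, and the arm difference at each was compared with the other. No gene passed (0%). At an unadjusted p under 0.05, 333 genes (2.35%) had a larger Hu minus Mu at ZT 22 and 358 (2.52%) a smaller one. Khk, the fructose-phosphorylating enzyme ketohexokinase, was at 24.9 and 22.3 CPM in Hu against 14.3 and 12.6 CPM in Mu at ZT 22, but at 20.0, 18.7 and 19.4 CPM against 19.6 and 18.7 CPM at ZT 2. At ZT 22 alone the difference for Khk was 0.81 ± 0.113 (adjusted p = 0.0153, edgeR, in the fit of all 27 libraries). Tmc7, of the transmembrane channel-like family, turned round: 4.04 and 4.48 CPM in Hu against 25.9 and 12.9 CPM in Mu at ZT 22, and 11.5, 22.2 and 13.9 CPM in Hu against 2.74 and 2.22 CPM in Mu at ZT 2. For both genes the difference between the times did not pass (adjusted p = 0.312, edgeR).

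Of 20 core clock genes, 19 were tested (Rorb was too low), and 0 passed around lights on or for the departure. At an unadjusted p under 0.05, 2 were higher in Hu around lights on and 1 lower, near the shares of all genes, while 7 had a positive and 2 a negative departure, against the 5.78% and 4.99% of all genes given above. These counts moved with single libraries. There were 3 positive and 1 negative without replicate 1 of Hu at ZT 22 and likewise without replicate 2 of Mu at ZT 2, 3 and 2 without replicate 1 of Mu at ZT 2, 3 and 3 without replicate 1 of Hu at ZT 2, 4 and 2 without either Mu library of ZT 22, and 6 or 7 and 2 without the others. Without replicate 2 of Hu at ZT 22, 2 of the 19 passed for the departure, Nr1d2 and Cry1, and 7 were higher and 4 lower around lights on at an unadjusted p under 0.05. The genes belong to the same feedback loop and so are not separate observations. In the RefSeq promoters of GRCm38.p6, from 250 bases before to 50 after each start, which were there for 17 of the 20 genes, the E-box CACGTG that BMAL1 and CLOCK bind was in 5 genes (Per1, Cry1, Ciart, Tef and Bhlhe41). It was in 7.15% of all 32817 promoters in the table. A core clock gene was counted if any of its starts held a motif, while the shares of all promoters count each start singly. The 2 are therefore not like for like. The D-box TTATGTAA or TTACGTAA, bound by the PAR bZIP factors and NFIL3, was in Per3 (1.05% of all promoters), and the ROR element, AGGTCA after a short A- and T-rich stretch, bound by REV-ERB and ROR receptors, was at a start of Arntl (0.219%). All motifs were searched on both strands and none overlapped another.

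The 250 upstream bases of 3 genes are shown, because they hold these motifs and the arm difference of each turned from negative at ZT 22 to positive at ZT 2, with the E-box of Per1, the 3 E-boxes of Ciart and the 2 D-boxes of Per3 in capitals (Per1, chr11:69098699-69098948, plus strand; Ciart, chr3:95882229-95882478, minus strand; Per3, chr4:151044666-151044915, minus strand).
Per1: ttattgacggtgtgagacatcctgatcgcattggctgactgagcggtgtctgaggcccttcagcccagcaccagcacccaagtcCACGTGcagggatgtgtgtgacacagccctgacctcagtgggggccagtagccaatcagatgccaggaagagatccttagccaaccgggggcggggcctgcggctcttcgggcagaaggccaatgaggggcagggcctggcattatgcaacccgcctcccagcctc
Ciart: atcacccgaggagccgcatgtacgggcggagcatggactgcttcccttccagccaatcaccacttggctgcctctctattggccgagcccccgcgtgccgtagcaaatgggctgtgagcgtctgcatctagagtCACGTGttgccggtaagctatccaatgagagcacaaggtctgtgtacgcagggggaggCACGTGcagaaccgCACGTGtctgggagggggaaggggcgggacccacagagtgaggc
Per3: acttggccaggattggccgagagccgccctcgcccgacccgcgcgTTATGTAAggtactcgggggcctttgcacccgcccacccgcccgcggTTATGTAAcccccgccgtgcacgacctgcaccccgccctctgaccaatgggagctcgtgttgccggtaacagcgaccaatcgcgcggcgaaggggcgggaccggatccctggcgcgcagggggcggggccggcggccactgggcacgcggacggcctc
A match is a description of the letters and shows no binding in these libraries. At ZT 22 the differences were of a size with their SE (log2, Per1 -0.43 ± 0.49, Ciart -0.76 ± 0.69, Per3 -0.32 ± 0.37). Cry1, Tef and Bhlhe41 hold an E-box and kept their sign from ZT 22 to ZT 2. Dbp changed sign with none of these motifs in its promoter. A link between motif and sign was not tested.

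Several repressors and output factors had arm differences of opposite sign at ZT 22 and ZT 2. Dbp, whose product drives D-box genes, was at 10.5 and 8.60 CPM in Hu against 13.9 and 15.2 CPM in Mu at ZT 22. At ZT 2 it had reached 94.7, 38.9 and 79.5 CPM in Hu and stood at 9.63 and 14.96 CPM in Mu. Mu libraries were at a like level, 71.3 and 102 CPM, at ZT 6. The arm difference was thus -0.60 ± 0.69 at ZT 22 and 2.53 ± 0.69 at ZT 2 (log2), and the departure of the window as a whole was 2.02 ± 0.58 (unadjusted p = 0.0026, adjusted p = 0.427, edgeR). Against ZT 6 alone it was -0.058, since Dbp was higher in Hu at ZT 6 as well.

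Per1, Per2 and Per3, the period repressors, had the same shape. Per1 was at 12.6 and 6.52 CPM in Hu against 11.6 and 13.98 CPM in Mu at ZT 22, and at 29.1, 14.6 and 22.1 CPM against 3.20 and 6.30 CPM at ZT 2. Per2 was at 3.33 and 3.77 CPM in Hu against 5.73 and 6.78 CPM in Mu at ZT 22, and at 11.2, 2.39 and 4.21 CPM against 0.743 and 1.44 CPM at ZT 2. Per3 was at 9.404 and 5.32 CPM in Hu against 8.98 and 9.35 CPM in Mu at ZT 22, and at 20.0, 12.3 and 16.7 CPM against 4.82 and 7.74 CPM at ZT 2. All 3 were above every Mu library in Hu at ZT 2, by 2.21 ± 0.48, 2.43 ± 0.62 and 1.38 ± 0.35 (log2), and none was at ZT 22. At ZT 6 all 3 were again above every Mu library in Hu, by 1.44 ± 0.46, 2.34 ± 0.59 and 1.55 ± 0.35. Their departures were 0.33, 0.56 and 0.45 (unadjusted p = 0.42, 0.28 and 0.15, edgeR).

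Bhlhe40, which represses E-box genes, was at 98.6 and 95.4 CPM in Hu against 140 and 105 CPM in Mu at ZT 22, and at 236, 155 and 138 CPM against 62.2 and 90.7 CPM at ZT 2. Of the core clock genes it had the smallest p for the change between the times (ZT 22 minus ZT 2, -1.54, unadjusted p = 0.00047, adjusted p = 0.883, edgeR). Ciart, a repressor of BMAL1 and CLOCK, was at 0.633 and 0.701 CPM in Hu against 0.854 and 1.40 CPM in Mu at ZT 22. At ZT 2 it was at 4.98, 1.04 and 2.06 CPM in Hu against 1.09 and 0.845 CPM in Mu, where the arms overlapped.

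At ZT 2 all Hu libraries were below all Mu libraries for Nfil3, Arntl and Cry1, and at ZT 22 the arms overlapped. Nfil3 was at 32.6 and 66.5 CPM in Hu against 49.8 and 42.1 CPM in Mu at ZT 22, and at 13.2, 14.2 and 11.9 CPM against 30.2 and 32.3 CPM at ZT 2, with a departure of -1.01 ± 0.26 (unadjusted p = 0.0012) that turned to 0.37 against ZT 6 alone. Arntl was at 42.0 and 53.2 CPM in Hu against 48.6 and 42.9 CPM in Mu at ZT 22, and at 17.3, 26.5 and 18.8 CPM against 42.4 and 35.0 CPM at ZT 2. Cry1, a cryptochrome repressor, was at 16.2 and 38.0 CPM against 36.9 and 33.5 CPM at ZT 22, and at 14.9, 15.5 and 12.5 CPM against 19.6 and 23.1 CPM at ZT 2. The Cry1 difference was negative at both times, -0.38 ± 0.255 at ZT 22, where 1 Hu library made the overlap, and -0.58 ± 0.232 at ZT 2 (log2). Of these 3 genes, Nfil3 alone had an unadjusted p under 0.05 for the change between the times.

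Of the receptors of the side loop, Nr1d2 is described above and Nr1d1 and Rora follow. Nr1d1, encoding REV-ERBα, was at 226 and 77.8 CPM in Hu against 62.3 and 38.6 CPM in Mu at ZT 22, and at 258, 223 and 225 CPM against 179 and 178 CPM at ZT 2. It was higher in Hu at both times, by 1.59 ± 0.52 and 0.40 ± 0.47 (log2), and its level in replicate 2 of Hu at ZT 22 was far below the other 4 Hu libraries. Rora, encoding an ROR activator, was higher in every Hu library than in every Mu library, with 134, 113, 129, 106 and 101 CPM against 76.5, 83.4, 87.6 and 87.3 CPM, ZT 22 before ZT 2. Its difference was 0.48 ± 0.105 and did not pass (unadjusted p = 0.0013, adjusted p = 0.122, edgeR).

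**Figure D4:**
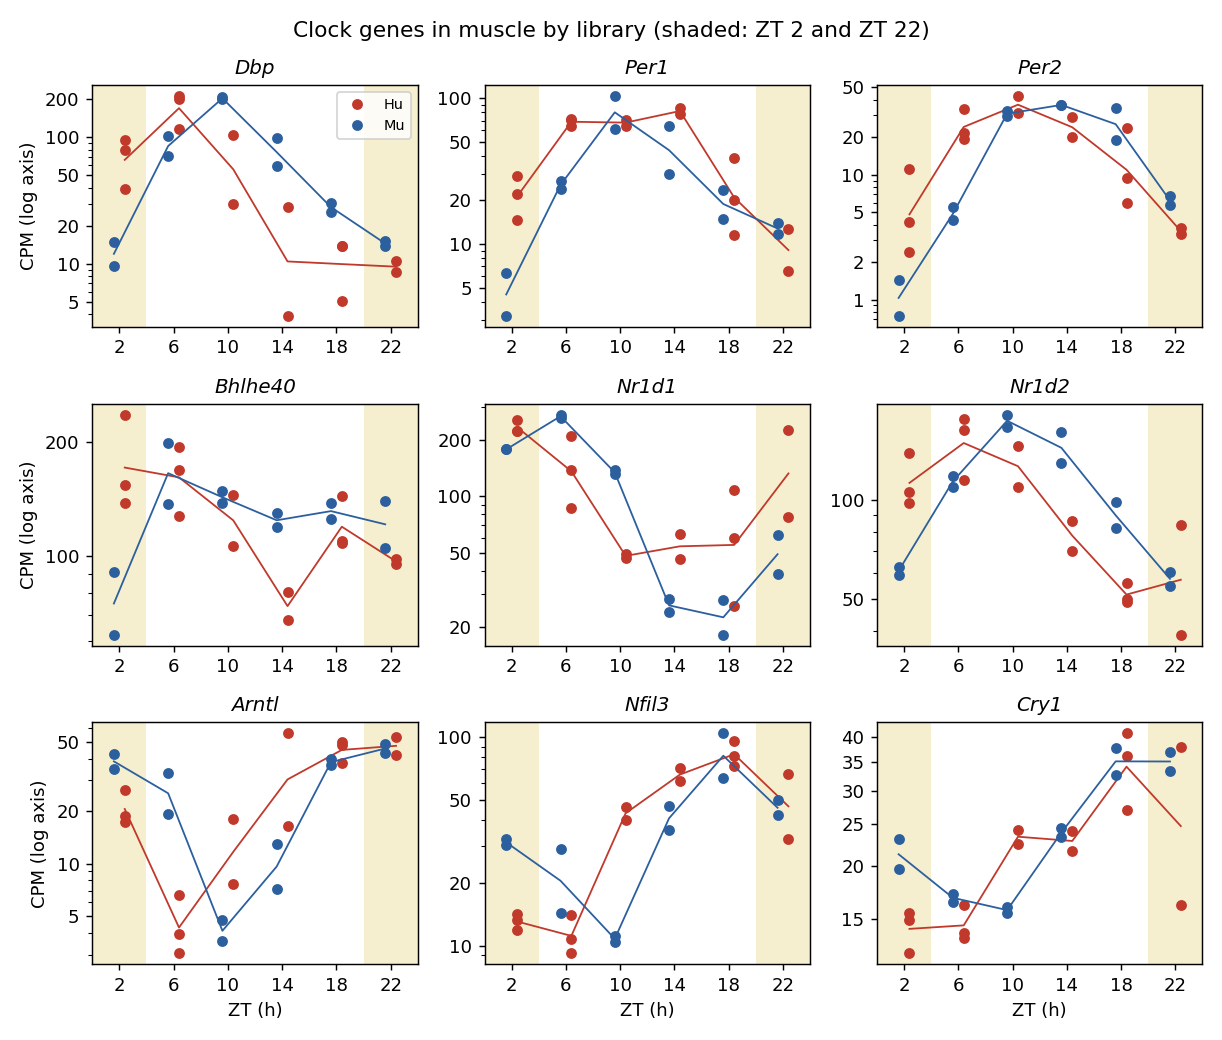
CPM (log axis) of 9 clock genes in each muscle library by ZT in hours (Hu red, Mu blue; lines join group means; ZT 2 and ZT 22 shaded). At ZT 2 the Hu points of Dbp, Per1, Per2, Bhlhe40, Nr1d1 and Nr1d2 lie above the Mu points and those of Arntl, Nfil3 and Cry1 below them.

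Counted over the 19 genes, the arms did not overlap for 14 at ZT 2, with 9 higher in Hu and 5 lower, against 8.92% and 9.38% of all genes. At ZT 22 they did not overlap for 7, with 3 higher and 4 lower, against 29.7% and 31.6% of all genes, which are larger because each arm has 2 libraries there. The core clock genes thus lay below the share of all genes at ZT 22 and above it at ZT 2. That was not particular to ZT 2. At ZT 6, also with 3 Hu and 2 Mu libraries, 9 were higher and 6 lower without overlap, against 14% and 14.8% of all genes. The counts were 5 and 7 at ZT 10 (28.3% and 26.8%), 6 and 9 at ZT 14 (29.7% and 27.7%) and 3 and 3 at ZT 18 (13.2% and 17.1%). None of the 19 passed at either time, while 1 passed at ZT 6 (Arntl), 1 at ZT 10 (Nfil3) and 2 at ZT 14 (Arntl and Npas2). The change between ZT 22 and ZT 2 had an unadjusted p under 0.05 for 8 of the 19. Nfil3 had a larger Hu minus Mu at ZT 22, and Bhlhe40, Per1, Per2, Per3, Dbp, Ciart and Nr1d2 a smaller one. The shares of all genes were 2.35% and 2.52%.

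**Figure D5:**
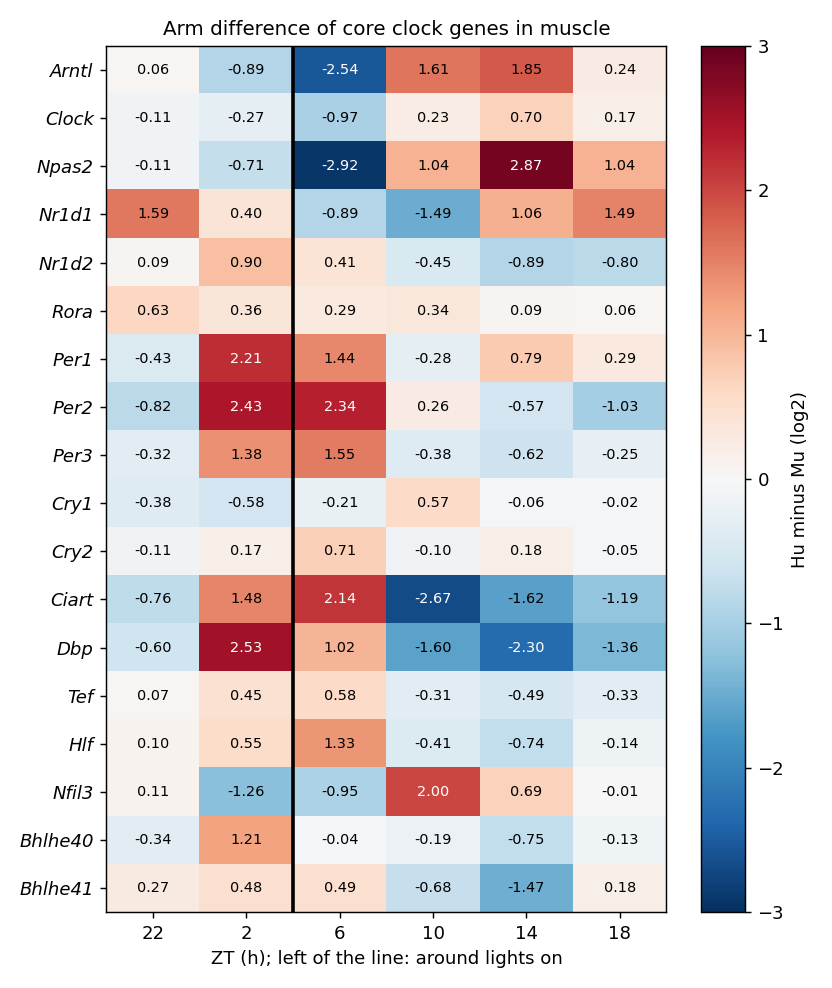
Hu minus Mu (log2, colour and printed value) of 18 core clock genes, at each ZT, with ZT 22 and ZT 2 to the left of the line. From ZT 22 to ZT 2 the values of Per1, Per2, Per3, Ciart, Dbp and Bhlhe40 change from negative to positive, and at ZT 10 and 14 those of Dbp and Ciart are negative again.

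Genes under the clock but outside the loop were counted in the same way. Of 14 other clock-controlled genes, 1 was higher and 1 lower around lights on at an unadjusted p under 0.05 (Klf9, 0.50 ± 0.17, and Lonrf3, -0.77 ± 0.25), against 9.17% and 9.7% of all genes. At that p, 2 had a positive departure (Usp2 and Coq10b, 0.57 and 0.81) and 0 a negative one, against 5.78% and 4.99% of all genes. Of 11 muscle genes under clock control, 3 had a positive departure at that p (5.78% of all genes). They were Ucp3, a mitochondrial uncoupling protein, at 1.30 (unadjusted p = 0.0089), Tcap, a Z-disc protein, at 0.66 and Pdp1, which activates pyruvate dehydrogenase, at 0.64. With a library left out, the muscle genes with a positive departure numbered 0 to 3 of 11. None of these passed in the fit of all libraries.

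Of the 11 fast and the 11 slow and oxidative fibre genes, 0 passed around lights on. Of the fast fibre genes, 8 were higher in Hu at an unadjusted p under 0.05 and 0 lower (9.17% and 9.7% of all genes), with a median of 0.44 (log2) against -0.01 for all genes and 0.03 for the same list at the other times. Mylpf, the fast regulatory light chain, was at 7354 to 10750 CPM in Hu and 4743 to 6224 CPM in Mu (0.66 ± 0.16). Actn3, the fast-fibre α-actinin, was at 5415 to 9801 CPM and 2669 to 5248 CPM (0.90 ± 0.26), and Myh4, the IIB myosin, at 35020 to 48060 CPM and 18400 to 33150 CPM (0.67 ± 0.20). Of the 11, 6 had a positive departure at an unadjusted p under 0.05 (5.78% of all genes), among them Tnni2 and Tnnc2, fast troponin subunits (0.44 and 0.57). Leaving out each library around lights on in turn put the number of higher genes between 4 and 10 and that of positive departures between 0 and 6.

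The slow and oxidative list had a median of -1.47 (log2), and -1.06 at the other times, with 2 of 11 lower in Hu at an unadjusted p under 0.05 (9.7% of all genes). Myh2, the IIA myosin, was at 767 to 3472 CPM in Hu and 2020 to 13670 CPM in Mu (-1.74 ± 0.63), and Myoz2, a Z-disc protein of slow fibres, at 17.97 to 91.6 CPM and 53.6 to 318 CPM (-1.67 ± 0.61). The arms overlapped for every gene of this list. Leaving out each library in turn put the number of lower genes between 0 and 9 and the median between -2.31 and -0.90. Whether fibre make-up has a part in the other differences was not tested.

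Genes of fatty acid oxidation and PPAR targets had a median of -0.37, with 9 of 23 lower in Hu and 0 higher at an unadjusted p under 0.05 (9.7% and 9.17% of all genes). None passed. The lower genes numbered 7 to 13 with a library left out, and without replicate 2 of Mu at ZT 2 there were 13, of which 5 passed. Hadha, a subunit of the mitochondrial trifunctional protein, was at 328 to 475 CPM in Hu and 507 to 590 CPM in Mu, without overlap (-0.52 ± 0.11, adjusted p = 0.122, edgeR). Fabp3, the muscle and heart fatty acid binding protein, differed by -1.26 ± 0.39 and Acadl, a long-chain acyl-CoA dehydrogenase, by -0.62 ± 0.17. Of the 23, 7 passed as lower at the other times. Only Ucp3 of the list had a departure at an unadjusted p under 0.05. The slow fibre list, by its median, and the mitochondrial share were also lower in Hu, and their part in this list was not tested.

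Heat shock genes, whose products refold proteins under stress, were on the low side in Hu, with 11 of 15 lower and 0 higher at an unadjusted p under 0.05 (9.7% and 9.17% of all genes), and a median of -0.57 (-0.33 at the other times). None of the 15 passed. Hspa1a, the inducible HSP70, was at 0.894 to 3.56 CPM in Hu and 2.91 to 22.6 CPM in Mu (-1.66 ± 0.59). Hsp90aa1, the inducible HSP90, was at 40.6 to 96.3 CPM and 80.9 to 188 CPM (-0.96 ± 0.24). Cryab and Hspb1, small heat shock proteins of the muscle cytoskeleton, differed by -1.16 ± 0.38 and -0.90 ± 0.26, and Hspb1 alone of the list had a departure at an unadjusted p under 0.05 (-0.99 ± 0.42). Between 7 and 11 were lower when each library was left out in turn, and 1 passed without replicate 2 of Mu at ZT 2.

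Genes of the growth hormone axis were on the high side in Hu. Growth hormone signals through JAK2 and STAT5, whose targets in muscle include the feedback inhibitors Socs2 and Cish. Of 12 genes, 6 were higher at an unadjusted p under 0.05 and 0 lower (9.17% and 9.7% of all genes), with a median of 0.42, and 0 passed. With a library left out 5 to 8 were higher, and 2 passed without replicate 2 of Mu at ZT 2. Of the 12, 6 passed as higher at the other times. Socs2 was at 13.2 to 29.3 CPM in Hu and 6.44 to 8.42 CPM in Mu (1.51 ± 0.24, adjusted p = 0.083, edgeR), and Igfbp3, an IGF carrier, at 17.3 to 33.1 CPM and 10.1 to 13.2 CPM (1.14 ± 0.22, adjusted p = 0.112), both without overlap. Cish was at 13.7 to 124 CPM and 5.43 to 20.9 CPM (2.32 ± 0.71), against 0.29 at the other times, a departure of 1.96 (unadjusted p = 0.0247). Ghr, the growth hormone receptor, had a departure of 0.34 (unadjusted p = 0.0085).

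Among 16 genes of insulin signalling and glucose use, 6 were higher and 2 lower in Hu at an unadjusted p under 0.05 (9.17% and 9.7% of all genes), or 3 to 7 and 0 to 4 with a library left out. Akt2, the insulin-responsive kinase of muscle, was at 238 to 287 CPM in Hu and 174 to 222 CPM in Mu (0.43 ± 0.0998). Insr, the insulin receptor, differed by -0.25 ± 0.095 and had a departure of -0.34 (unadjusted p = 0.0166). Of the 16, 3 had a positive and 2 a negative departure at an unadjusted p under 0.05 (5.78% and 4.99% of all genes). With a library left out these were 0 to 3 and 1 to 2, and the list median was 0.14 in the fit of all libraries. Tbc1d1, a brake on glucose transporter traffic from the clock list of muscle, differed by -0.84 ± 0.21. None passed.

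Of 14 glucocorticoid-responsive genes, 4 were higher and 1 lower in Hu at an unadjusted p under 0.05 around lights on (9.17% and 9.7% of all genes), whereas 5 passed as higher at the other times. At that p, 5 had a negative departure and 1 a positive one (4.99% and 5.78% of all genes), and 3 to 5 a negative one with a library around lights on left out, 3 being without replicate 2 of Hu at ZT 22, replicate 1 of Mu at ZT 22 or replicate 2 of Mu at ZT 2. Replicate 2 of Hu at ZT 14, in the reference, held 3687 CPM of this list against at most 2002 CPM in any other muscle library. Its part in these departures was not tested. Ddit4, an inhibitor of mTORC1, differed by 0.53 ± 0.14 around lights on against 1.27 at the other times, and Mt1, a metallothionein, by -0.08 ± 0.19 against 1.41. Sgk1, a kinase induced by corticosteroids, went the other way, with 0.98 ± 0.26 around lights on, 0.18 at the other times and a departure of 0.78 (unadjusted p = 0.0132). In Hu Sgk1 was at 106 to 227 CPM and in Mu at 58.9 to 98.6 CPM.

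Mstn, the myokine myostatin that limits muscle growth, was the leading member of the FoxO and atrophy list. It was at 56.6 to 98.8 CPM in Hu and 28.6 to 48.3 CPM in Mu, without overlap (0.93 ± 0.20, adjusted p = 0.122, edgeR), with 0.27 at the other times and a departure of 0.73 (unadjusted p = 0.0126). The ubiquitin ligases Fbxo32 and Trim63 overlapped between the arms. Mstn alone of the 14 had a positive departure. The other 13 were negative (7981 of all 14197 genes), and the list median was -0.26. At an unadjusted p under 0.05, 1 was positive and 1 negative (5.78% and 4.99% of all genes). Replicate 2 of Hu at ZT 14, in the reference, held 6090 CPM of this list against at most 2671 CPM in any other muscle library. Its part in these departures was not tested. Of the 14 genes, 2 were higher and 0 lower at an unadjusted p under 0.05 (9.17% and 9.7% of all genes). Of 12 denervation genes, 4 were higher and 0 lower (9.17% and 9.7% of all genes), or 2 to 5 and 0 to 1 with a library left out: Ngfr (1.49 ± 0.30), Gadd45a (1.13 ± 0.40), Chrna1, a subunit of the acetylcholine receptor (0.70 ± 0.29), and Musk, the kinase of the neuromuscular junction (0.71 ± 0.26). Of 11 immediate early genes, 3 were higher and 2 lower (2 to 4 and 1 to 3 with a library left out). For the departure, 1 was positive and 1 negative at an unadjusted p under 0.05 (5.78% and 4.99% of all genes). The negative one was Egr1, at -1.55 (unadjusted p = 0.0312). For the immediate early genes too, the shares of all genes were 9.17% higher and 9.7% lower. None of these lists had a gene that passed in the fit of all 9 libraries.

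Fewer markers of other cells in the tissue passed around lights on, where there are fewer libraries, than at the other times. Of 12 fat cell markers, 0 passed around lights on and 1 was higher at an unadjusted p under 0.05 (Cfd, 2.05 ± 0.83), against 9.17% of all genes. Their median was 0.57, while at the other times 6 passed as higher and the median was 2.09. The median around lights on lay between -0.109 and 2.387 with a library left out. Without replicate 2 of Mu at ZT 2, which had the highest fat cell marker level of the Mu libraries there, it was 2.387, 7 of the 12 were higher at that p, and the median departure went from -1.37 to -0.019. Adipoq was at 27.6 to 158 CPM in Hu and 2.15 to 120 CPM in Mu, the highest Mu value being that of replicate 2 at ZT 2. Of 9 macrophage and leukocyte markers, 2 were higher (Lyz2 and C1qa, 0.90 and 0.63), against 9.17% of all genes, with 7 passing as higher at the other times. Between 1 and 6 were higher with a library left out, 6 of them without replicate 2 of Mu or replicate 3 of Hu at ZT 2. Of 5 endothelial markers, 2 were lower, Kdr, a VEGF receptor (-0.59 ± 0.16), and Cdh5 (-0.43 ± 0.13), against 9.7% of all genes. At the other times 3 passed as lower. No fat, macrophage or endothelial marker had a departure at an unadjusted p under 0.05, while without replicate 3 of Hu at ZT 2 the fat cell markers gave 5 negative ones. The part of these cells in the results was not tested.

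The same departure was computed in the other tissues, where the animals may be the same ones. It passed for 2 of 14977 mouse genes in liver (0.0134%), for 0 of 15079 in the arcuate nucleus (0%) and for 0 of 15006 in the suprachiasmatic nucleus (0%), 2 regions of the hypothalamus. In liver, Hu mice have fewer murine hepatocytes, so the mouse genes there come from other cells in part. None of the genes named for the departure in muscle passed in any of these tissues. Nr1d2 had 1.28 in liver (adjusted p = 0.245, edgeR), -0.10 in the arcuate nucleus and 0.05 in the suprachiasmatic nucleus, and Dbp had 1.60, 0.26 and -0.18 in the same order.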

How the data were processed

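Muscle RNA was made into libraries with a kit that keeps strand, per the labels' protocols. STAR and the builds GRCm38, mm10, hg38, GRCh38 and hg19 are listed in the submitters' processing notes, with no role for each. The counting program and annotation are not given in the sources used here. The authors deposited raw read counts per Ensembl mouse gene, and 20329 of the 20415 rows matched a symbol. Gene positions are those of GRCm38.

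Counts were tested with edgeR 4.0.16 (quasi-likelihood F test, R 4.3.3). Normalization (trimmed mean of M-values) and the filter on low counts, which kept 14197 genes, used the 27 muscle libraries. The comparison around lights on was fitted on 9 libraries with ZT and arm, that at the other times on 18 likewise, and the departure on 27 with a mean for each arm and time, weighting times equally. Adjusted p-values are Benjamini-Hochberg over all genes tested, and SE is the log2 difference over the root of F. Positive values are higher in Hu. DESeq2 1.42.0 and other filters, scalings, references and left-out libraries were alternatives, and the scripts were tested on simulated data.

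The libraries compared and the gene lists were chosen with earlier results of these data known. The text names the 5 higher and 5 lower genes with the smallest p around lights on, the 8 positive and 8 negative departures with the smallest p, the 2 genes with the smallest p between ZT 22 and ZT 2, the core clock genes, and up to 4 members of each other list by smallest p, each with a symbol. Other list members named were chosen after their values were seen. Some genes that this rule names are not reported here.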

Additional observations from a re-analysis of the deposited data

Results flagged for a closer look

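In 3 of the 92 groups examined, a library lay far from the rest of its group around lights on, where chance alone marks about 1 group in 20. Each group pooled the libraries of 1 arm at ZT 22 and ZT 2. Daily change is thus part of its spread, and that rate need not hold for rhythmic genes. Nr1d1, encoding REV-ERBα, was at 77.8 CPM in replicate 2 of Hu at ZT 22, against 223 to 258 CPM in the other 4 Hu libraries. Cry1 was at 38.0 CPM in the same library, against 12.5 to 16.2 CPM in the other 4. Of those 4, only replicate 1 was also of ZT 22. For both genes replicate 2 was nearer than replicate 1 to the Mu libraries of ZT 22. The flag therefore does not tell which Hu library of ZT 22 is the unusual one. Wls was at 29.4 CPM in replicate 2 of Mu at ZT 22, against 32.6 to 32.9 CPM in the other 3 Mu libraries.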

How the results depend on the processing

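The count of 8 genes around lights on became 902 with DESeq2, 67 in the fit of all 27 libraries, 2 at ZT 22 alone, 1 at ZT 2 alone and 0 with fat cell and slow fibre scores as covariates, and 0 to 327 when each library was left out. It stayed within 1.5 times under other size factors, other filters and no ZT term. The 2037 genes at the other times became 0 with the scores as covariates and 1072 to 2396 with a library left out, lowest without replicate 1 of Mu at ZT 18. The counts for the departure (0) and between ZT 22 and ZT 2 (0) became 1 and 5 with DESeq2. The departure gave 4 genes against ZT 10 alone, 151 against ZT 14 alone (90 positive, 61 negative), and 0 to 32 with a library left out: 32 without replicate 1 of Hu at ZT 14, where the lone sample left is assumed to vary like the other groups, 3 without replicate 2 of Hu at ZT 22 and 1 without replicate 2 of Mu at ZT 2. The contrast between ZT 22 and ZT 2 gave 1 gene with the scores as covariates and 0 to 1 with a library left out. The causes were not tested.

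The deviations of same-numbered Hu and Mu libraries correlated by -0.207 to 0.524 (mean 0.0323 at all times and 0.1025 around lights on). Where each arm has 2 libraries at a time (ZT 10, 14 and 22), both numbers give the same value by construction, so the 12 pairs are not 12 separate values. The labels do not say that a number pairs animals. With the replicate number as a block, 0 genes passed around lights on, 1322 at the other times, 0 for the departure and 0 between ZT 22 and ZT 2.

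The departures of 14 of the 19 core clock genes changed sign in at least 1 setting, and those of the other genes named for a departure in none. Against ZT 6 alone the values were 2.12 for Arntl, 0.77 for Clock, 2.51 for Npas2, -0.55 for Per1, -1.53 for Per2, -1.02 for Per3, -1.78 for Ciart, -0.058 for Dbp, -0.32 for Tef, -1.01 for Hlf, 0.37 for Nfil3 and -0.11 for Bhlhe41. Nr1d1 was at -0.069 against ZT 14 alone and -0.49 against ZT 18 alone, and Cry2 at 0.13 against ZT 10 alone and 0.072 against ZT 18 alone. Of 85 other list genes, 54 changed sign in at least 1 setting. Depth limits Fam81b (4 to 6 counts in each Mu library around lights on) more than the other named genes.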
